A study of Homo sapiens with 4 samples.

Results

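H3K36me2 peaks inside genes were the peaks of the DMSO and AS-99 H3K36me2 lists on chromosomes 1 to 22 and X whose summit lay in a protein-coding gene of GENCODE release 44, mapped to GRCh37 (hg19). They numbered 692 of 1359 peaks on these chromosomes in the DMSO list and 333 of 634 in the AS-99 list, which is 1025 of the 6948 peaks of the 4 lists of the series. The choice used position only and no measured value. MV4;11 cells, a human leukemia line with a rearranged MLL1 gene (MLL-AF4), had been kept for 4 days in 0.25% DMSO or in 5 µM AS-99, a small-molecule inhibitor of the methyltransferase ASH1L. Chromatin was then profiled by CUT&RUN, in which an antibody guides a nuclease that releases DNA fragments around its target, with 1 library for each treatment and antibody (H3K36me2 or ASH1L). The dose is the one on the labels. The methods text gives a slightly higher one and speaks of several replicate treatments, where the reporting form speaks of a single replicate.

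H3K36me2 is dimethylation of lysine 36 of histone H3, which is written by ASH1L and the NSD enzymes and spreads over broad domains inside and between genes. The trimethylated form, H3K36me3, is laid down by SETD2 along the bodies of transcribed genes, and the fusion proteins of MLL-rearranged leukemia rely on chromatin marked by ASH1L at genes such as those of the HOXA cluster. A peak list holds narrow, locally enriched places, so a broad domain of the mark need not be in it.

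Depth limits all that follows. Filtering left 15584143 fragments in the DMSO H3K36me2 library and 13208636 in the AS-99 library. The median genic summit was covered by 18 fragments in the DMSO list and 14 in the AS-99 list, which is 1.16 and 1.06 per 1000000 fragments of the library. The median fold enrichment over background was 4.43 in the DMSO list and 4.98 in the AS-99 list, so a bound on fold enrichment keeps a larger share of the AS-99 list. With 1 library per group no difference has a replicate check. No p-value is given, and the 95% intervals given throughout cover only counting error, or for medians how far peaks vary.

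The following 6 genic summits are picked examples, each as 201 bases of the plus strand of GRCh37 centred on the summit, with every CpG in capitals. DTNB at chr2:25706818-25707018 (intron 9) and NCKAP5L at chr12:50218975-50219175 (intron 1) are high-ranking peaks found in 1 treatment only. HFM1 at chr1:91852820-91853020 (intron 4) is the tallest peak found in both, at a place where both ASH1L lists also have a peak. RUNX1 at chr21:36355766-36355966 (intron 2) lies in the gene with the most peaks. TMED1 at chr19:10946444-10946644 and TMEM145 at chr19:42817553-42817753 are CpG-rich summits less than 1 kb from a gene start.
DTNB, DMSO list: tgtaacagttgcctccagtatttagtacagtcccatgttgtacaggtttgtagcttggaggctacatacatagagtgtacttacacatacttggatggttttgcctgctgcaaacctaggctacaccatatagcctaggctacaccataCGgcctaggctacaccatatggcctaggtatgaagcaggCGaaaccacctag
NCKAP5L, AS-99 list: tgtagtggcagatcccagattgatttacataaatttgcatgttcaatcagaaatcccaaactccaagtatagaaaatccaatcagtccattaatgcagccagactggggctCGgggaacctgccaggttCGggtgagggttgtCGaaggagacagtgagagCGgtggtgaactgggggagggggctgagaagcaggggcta
HFM1, both lists: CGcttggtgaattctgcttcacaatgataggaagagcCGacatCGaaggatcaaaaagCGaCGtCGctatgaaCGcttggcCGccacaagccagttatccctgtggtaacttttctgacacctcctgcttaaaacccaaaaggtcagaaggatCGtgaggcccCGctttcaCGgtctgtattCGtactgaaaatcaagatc
RUNX1, DMSO list: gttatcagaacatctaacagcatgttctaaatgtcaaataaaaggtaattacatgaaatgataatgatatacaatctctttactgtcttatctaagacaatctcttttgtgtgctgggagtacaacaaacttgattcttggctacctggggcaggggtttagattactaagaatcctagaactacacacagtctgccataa
TMED1, DMSO list: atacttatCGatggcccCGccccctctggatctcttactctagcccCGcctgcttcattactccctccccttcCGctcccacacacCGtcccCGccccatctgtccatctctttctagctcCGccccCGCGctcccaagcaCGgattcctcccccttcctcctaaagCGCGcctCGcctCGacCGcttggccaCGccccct
TMEM145, AS-99 list: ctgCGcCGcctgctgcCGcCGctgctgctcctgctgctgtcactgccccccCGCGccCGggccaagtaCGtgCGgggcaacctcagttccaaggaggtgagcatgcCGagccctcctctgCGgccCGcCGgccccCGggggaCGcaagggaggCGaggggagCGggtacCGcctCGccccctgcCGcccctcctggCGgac
The RUNX1 window holds 0 CpG and is 35.3% G and C, whereas the TMEM145 window holds 21 CpG and is 76.6% G and C. The HFM1 window holds 12 CpG at 48.8% G and C.

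The share of H3K36me2 peaks that lay inside genes was 50.9% in the DMSO list (48.2 to 53.6) and 52.5% in the AS-99 list (48.6 to 56.5). The difference of 1.60 percentage points had an interval from -3.10 to 6.29. When the DMSO list was cut by −log10 p to the length of the AS-99 list, the shares were 46.8% and 52.5%, and the difference was 5.68 points with an interval above 0 (0.18 to 11.1). Protein-coding genes cover 45.8% of the determined bases of these chromosomes, or 1299.97 of 2835.67 Mb, and both whole lists held a larger share of genic peaks than that. The excess was not found among peaks that reach a −log10 p of 10, of which 45.1% in DMSO (40.3 to 49.9) and 44.1% in AS-99 (37.2 to 51.2) were genic. The ASH1L lists were more genic, at 57.5% in DMSO and 55.9% in AS-99. In number, the AS-99 list held 0.481 genic H3K36me2 peaks for each one in the DMSO list (0.421 to 0.549), and 0.451 peaks between genes (0.393 to 0.518). Divided by library size, the genic ratio was 0.568. The ratio depended on how strong a peak had to be. Among peaks with a fold enrichment of at least 5, the counts were 161 in DMSO and 165 in AS-99, a ratio of 1.02 (0.820 to 1.28).

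Annotated genes are wider than their main transcripts. Of the genic peaks, 574 in the DMSO list (82.9%) and 269 in the AS-99 list (80.8%) had their summit inside the canonical transcript of a gene, the others only in the span of longer or alternative transcripts. Counted by canonical transcripts, which cover 40.4% of the determined bases, 42.2% of the DMSO peaks (39.6 to 44.9) and 42.4% of the AS-99 peaks (38.5 to 46.4) were genic, with intervals that include the share of bases.

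A larger share of AS-99 than of DMSO genic peaks lay close to the gene start, and a smaller share lay far from it. Within 1 kb of the gene start lay 32 of 692 DMSO peaks (4.62%, 3.18 to 6.47) and 39 of 333 AS-99 peaks (11.7%, 8.46 to 15.7), a difference of 7.09 points (3.55 to 11.2). This stretch holds 1.33% of genic bases. The count near starts was thus 1.22 times the DMSO count under AS-99 (0.744 to 2.01), while the count farther into genes was 0.445 times the DMSO count (0.387 to 0.512). At 100 kb or more from the start, the numbers were 228 in DMSO and 80 in AS-99, a ratio of 0.351 (0.268 to 0.455). Those remote stretches are 42.1% of genic bases, and they held 32.9% of DMSO and 24% of AS-99 genic peaks. In the classes from 1 kb to 100 kb the intervals of the difference in share included 0. The median distance from the start was 51.4 kb in DMSO (45.1 to 58.3) and 40.4 kb in AS-99 (33.1 to 51.9), and these intervals overlap.

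When the distance was taken to the nearest start of any annotated transcript, 112 DMSO peaks (16.2%, 13.5 to 19.1) and 88 AS-99 peaks (26.4%, 21.8 to 31.5) were within 1 kb. Counted so, the number of peaks near starts was lower in AS-99 than in DMSO, while their share was higher. The direction of the difference in share was the same under each of the 9 alternatives tried, with a difference between 6.52 and 10.3 points. The first 20% of the gene held 23.6% of DMSO peaks and 30.3% of AS-99 peaks, a difference of 6.78 points (1.04 to 12.7). That interval included 0 among peaks that reach a −log10 p of 10 (5.42 points, -4.80 to 16.6) and among those with a fold enrichment of at least 5 (2.43 points, -7.09 to 11.9). The stretch from 60% to 80% held 18.8% and 12.9%, a difference of -5.87 points (-10.3 to -1.0). In the other sections of 20% the intervals of the difference included 0. The median summit lay 46% of the way along its gene in DMSO (42 to 49) and 40% in AS-99 (34 to 46), and these intervals overlap.

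**Figure D1:**
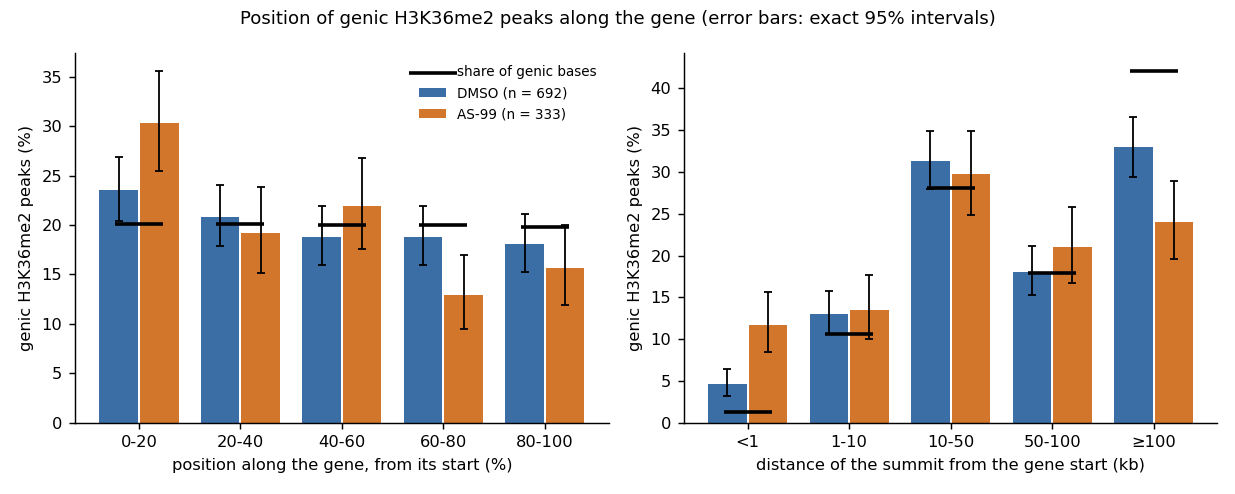
Share of genic H3K36me2 peaks (percent, vertical axes) by 20% section of the host gene (left) and by distance of the summit from the gene start in kb (right), for the DMSO (blue) and AS-99 (orange) lists with exact 95% intervals; black dashes are the share of genic bases. The AS-99 bar stands above the DMSO bar under 1 kb (11.7% against 4.62%) and below it from 100 kb on (24% against 32.9%).

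Start-proximal peaks were scarcer in the H3K36me2 lists than in the ASH1L lists. For ASH1L, 26.1% of genic peaks in DMSO and 16.3% in AS-99 were within 1 kb of the gene start. The H3K36me2 share was lower by 21.5 points in DMSO (interval of the difference -23.9 to -18.7) and by 4.58 points in AS-99 (-8.44 to -0.13). The gap between the H3K36me2 and the ASH1L list was thus smaller under AS-99 than in DMSO, and the difference between these gaps was not itself tested. Peaks of the 2 H3K36me2 lists were seldom the same, near starts as elsewhere in genes. Near starts 3 were overlapped between the lists, at SIGLEC10, GFM2 and PSMD11. These were 9.38% of the DMSO peaks near starts, beside 6.82% of those farther into genes. In the AS-99 list the shares were 7.69% and 15.3%, and in both lists the intervals overlapped. SIGLEC10 encodes an inhibitory receptor of immune cells that binds sialic acid, GFM2 a mitochondrial translation factor and PSMD11 a subunit of the proteasome. Among the DMSO peaks near starts were those at the chemokine genes CCL3, CCL5 and CCL23, with 20, 18 and 21 fragments at the summit, and at CEBPE, which encodes a transcription factor of granulocytes, with 17. Among the AS-99 peaks were those at RUNX3, a transcription factor related to RUNX1, with 13 fragments, and at IRAK2, a kinase of interleukin-1 and Toll-like receptor signalling, with 13. The chemokine genes, RUNX3 and IRAK2 were picked for naming after their values had been seen.

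The start-proximal peaks of the 2 lists also differed in sequence. At 10 or more CpG in the 300 bases around the summit stood 16 of the 32 start-proximal DMSO peaks (50%, 31.9 to 68.1) and 32 of the 39 AS-99 peaks (82.1%, 66.5 to 92.5). Away from starts the share was 5.30% in DMSO and 11.2% in AS-99. Over all genic peaks it was 7.37% (5.54 to 9.58) and 19.5% (15.4 to 24.2), a difference of 12.1 points (7.68 to 17.1), beside 5.10% of 2627 windows set every 500 kb along genic sequence. Median GC content was 44.3% in DMSO, 46.7% in AS-99 and 40.7% in those windows. The ASH1L lists were richer still, with 46.3% of genic DMSO peaks and 26.3% of genic AS-99 peaks at 10 or more CpG. The part of base composition in the difference by position was not tested.

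**Figure D2:**
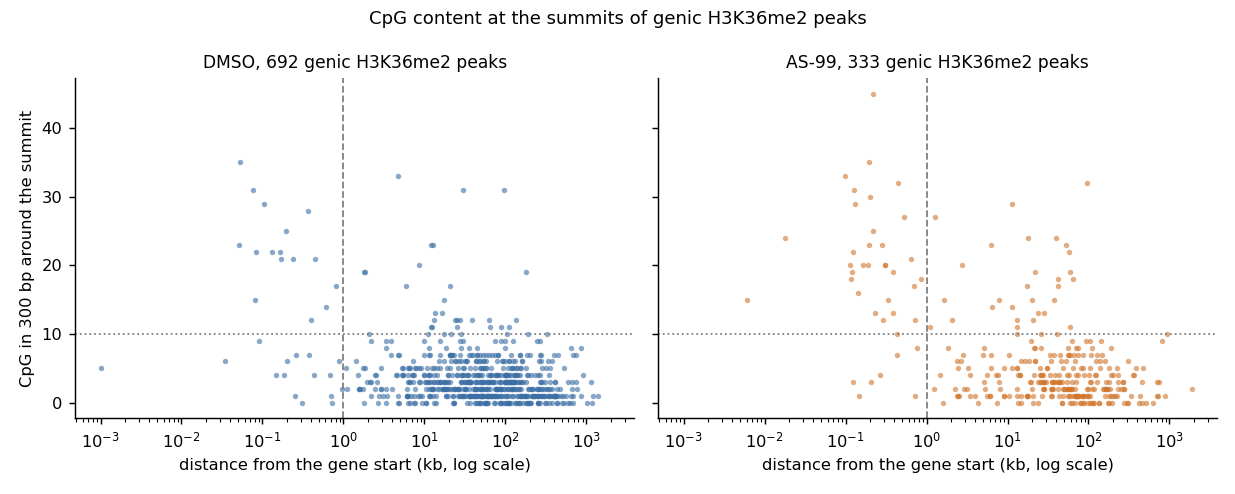
CpG dinucleotides in the 300 bases around each summit (vertical axes) against the distance from the gene start (kb, log scale) for each genic peak of the DMSO list (left, 692 points) and AS-99 list (right, 333 points); the dashed line is 1 kb and the dotted line 10 CpG. To the left of the dashed line, 32 of 39 AS-99 points and 16 of 32 DMSO points are on or above the dotted line.

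Most genic peaks were intronic in both lists. Exons of any transcript held 88 DMSO peaks (12.7%, 10.3 to 15.4) and 54 AS-99 peaks (16.2%, 12.4 to 20.6), and the difference of 3.50 points had an interval from -0.97 to 8.40. Coding exons held 21 DMSO peaks (3.03%) and 20 AS-99 peaks (6.01%), a difference of 2.97 points (0.37 to 6.23), with 2.74% of genic bases. Other exons held 67 and 34 peaks (9.68% and 10.2%). Of these, 19 in DMSO and 14 in AS-99 came before the coding sequence, 28 and 14 between coding exons, and 20 and 6 after it. First introns held 22.4% of DMSO and 24% of AS-99 peaks. Later introns of the canonical transcript held 48.8% and 42.9%, below their 60% of genic bases. Per megabase, later introns had 0.434 DMSO peaks (0.389 to 0.482) and first introns 0.618 (0.525 to 0.723), and under AS-99 these were 0.183 (0.155 to 0.216) and 0.319 (0.253 to 0.397). In coding exons alone the densities were alike in the lists, with 0.590 in DMSO and 0.562 in AS-99, each on about 20 peaks and with wide intervals (0.365 to 0.902 and 0.343 to 0.868).

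The longest genes had the lowest density of peaks. The median host gene was 129 kb long in DMSO (117 to 144) and 115 kb in AS-99 (95.5 to 130). Genes of 500 kb or more had 0.250 DMSO peaks per Mb (0.193 to 0.317) and 0.089 AS-99 peaks (0.057 to 0.133), against 0.695 (0.579 to 0.827) and 0.402 (0.315 to 0.506) in genes of 10 to 50 kb. From class to class the density went down with length in both lists, but the intervals of neighbouring classes overlapped except between genes of 100 to 500 kb and the longest genes. Genes of at least 100 kb held 59.2% of DMSO and 53.5% of AS-99 genic peaks, a difference of -5.80 points (-12.3 to 0.66). For ASH1L the shares were 43.9% and 50%. Genes of 100 to 500 kb hold 48.3% of genic bases and genes of 500 kb or more 20.7%, together more than any of these shares of peaks.

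**Figure D3:**
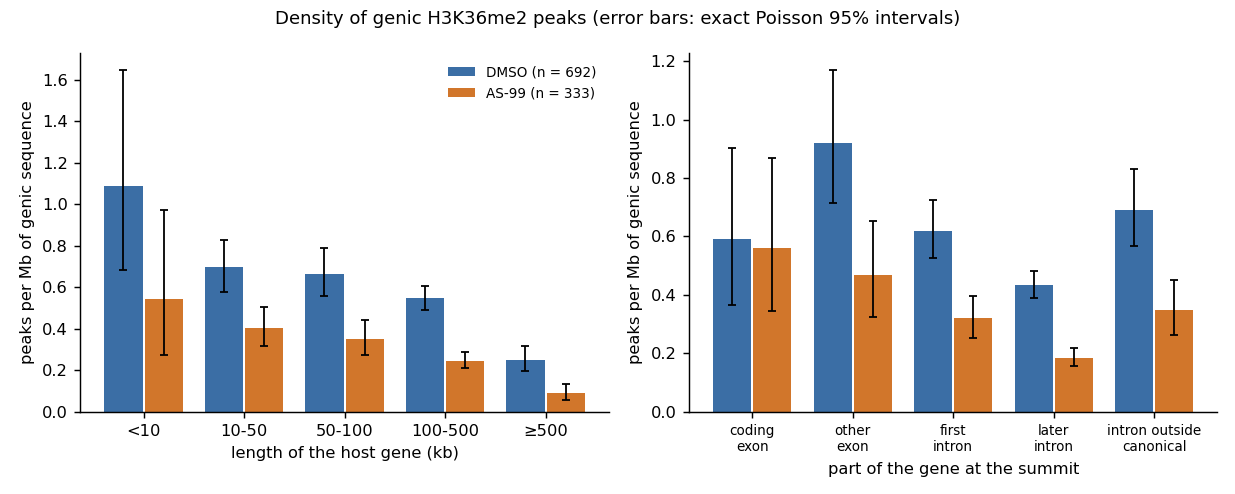
Genic H3K36me2 peaks per Mb of genic sequence (vertical axes) by length of the host gene in kb (left) and by the part of the gene at the summit (right), DMSO in blue and AS-99 in orange, with exact Poisson 95% intervals. Both lists are sparsest in genes of 500 kb or more (0.250 and 0.089 per Mb), and only in coding exons do the bars stand at about the same height.

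A minority of the host genes held a peak in both treatments. Taking the longest gene at each summit, 599 genes held a DMSO peak and 320 an AS-99 peak, of 20098 protein-coding genes. They had 87 in common, which is 14.5% of the former and 27.2% of the latter. Of all genes, 1.59% held an AS-99 peak and 2.98% a DMSO peak. More than 1 peak was found in 76 genes in DMSO and in 11 in AS-99. Peaks of 1 gene were mostly far apart: of the 169 DMSO peaks in such genes, 23 had another within 10 kb, and the median distance to the nearest was 39.0 kb.

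The most peaks were found in RUNX1, a transcription factor of blood stem cells that is a frequent target of mutation in leukemia, with 6 in DMSO and 2 in AS-99. The gene is annotated over 1217 kb because of far upstream starts, and its canonical transcript covers only the last 262 kb. Of the DMSO summits, 1 lay in that transcript, in intron 2 with 26 fragments. The other 5 lay upstream of it, with 19 to 25 fragments. Both AS-99 summits were upstream, with 12 and 17 fragments. The one with 17 fragments, 266 kb from the annotated start, overlapped a DMSO peak of 22 fragments and an ASH1L peak of the DMSO library.

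FOXN3, a forkhead transcription repressor, held 6 DMSO peaks of 15 to 19 fragments and no AS-99 peak. In intron 2 of its canonical transcript lay 3 of the 6, at 254, 261 and 267 kb from the gene start. CPQ, which encodes a secreted carboxypeptidase, held 6 DMSO peaks of 20 to 37 fragments, all inside its canonical transcript, and 1 AS-99 peak of 19 fragments that overlapped the weakest of them. MGLL, the lipase of monoacylglycerols, held 3 DMSO peaks with 20, 22 and 27 fragments and 1 AS-99 peak with 15, which did not overlap. MAPK6, the atypical kinase ERK3, held 3 DMSO peaks with 19, 22 and 26 fragments. Its AS-99 peak had 16 fragments and overlapped the DMSO peak with 26. With 4 peaks each, SPIDR and PIK3CB were tied with MGLL and MAPK6. SPIDR, a scaffold protein of DNA repair, held 1 DMSO peak of 19 fragments and 3 AS-99 peaks with 18, 21 and 21. PIK3CB, a catalytic subunit of phosphoinositide 3-kinase, held 2 DMSO peaks of 19 fragments, both overlapped by its AS-99 peaks of 13 and 20. The DMSO list thus held more peaks in 5 of these 7 genes, which were picked by their number of peaks from a DMSO list about double the length of the other.

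**Figure D4:**
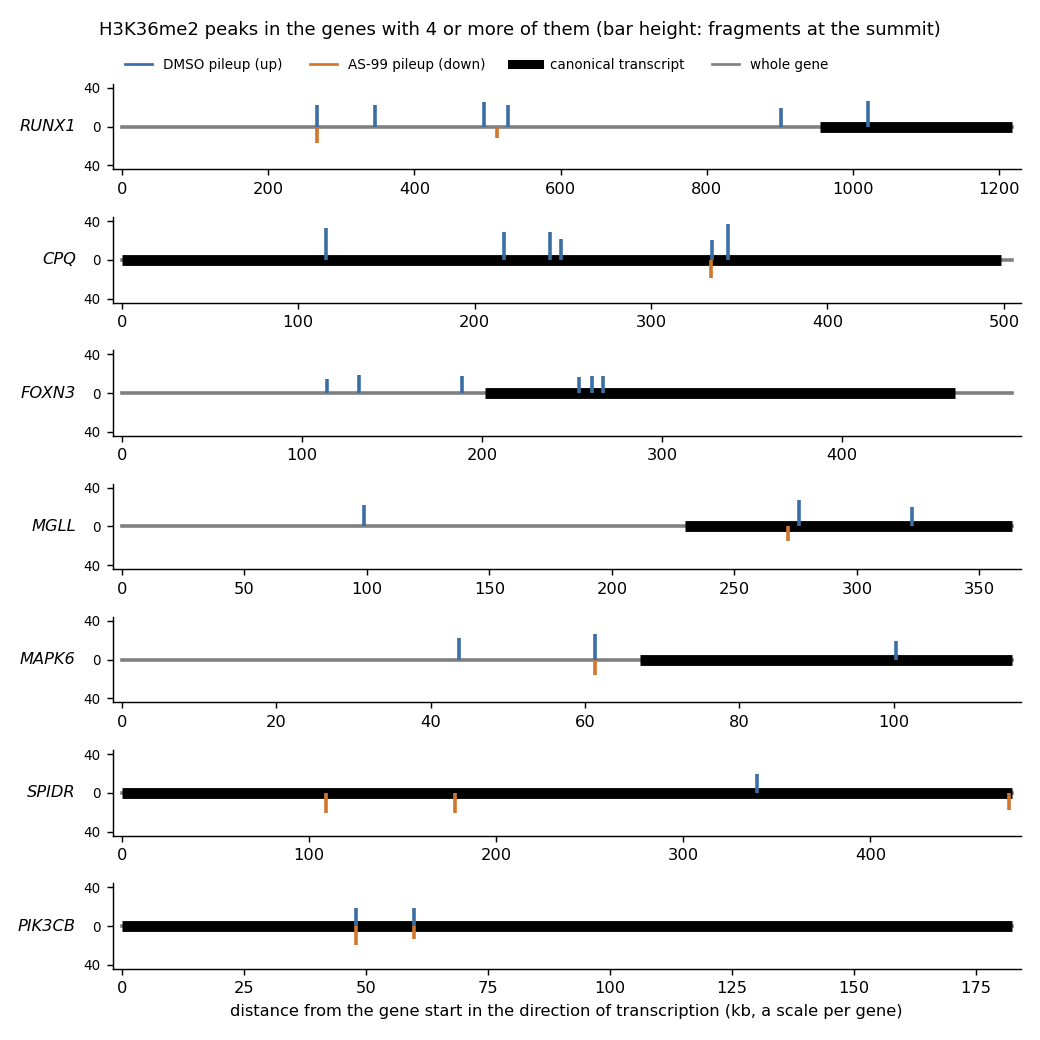
Summits of H3K36me2 peaks along the 7 genes with 4 or more of them, by distance from the gene start in kb; bar height is the number of fragments at the summit, DMSO in blue upwards and AS-99 in orange downwards, the black bar is the canonical transcript and the grey line the whole gene. RUNX1 shows 6 blue and 2 orange bars, most of them upstream of the canonical transcript, and SPIDR shows 1 blue and 3 orange bars.

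Peaks present in both treatments were a minority inside genes. Of the 692 DMSO peaks, 48 (6.94%, 5.16 to 9.09) were overlapped by an AS-99 peak, beside 8.68% of all DMSO peaks. Of the 333 AS-99 peaks, 48 (14.4%, 10.8 to 18.7) were overlapped by a DMSO peak, beside 18.6% of all AS-99 peaks. Between genes 10.5% of DMSO peaks were overlapped, so the genic share was lower by 3.56 points (interval of the difference -6.61 to -0.56). It was -13.3 points among peaks that reach a −log10 p of 10, -12.4 among those with a fold enrichment of at least 5 and -9.05 with equal list lengths, each with an interval below 0. Without peaks within 500 kb of an assembly gap it was 0.19 points (-2.66 to 3.0), and without peaks in copied sequence -1.18 points (-4.08 to 1.64). Places where all 4 lists, ASH1L included, have a peak are overlapped by definition, and they held 8 genic DMSO peaks and 39 between genes. Leaving them out gave a difference of 0.91 points (-1.59 to 3.39), a value that this choice of peaks pushes upwards. Within genes, the overlapped share was 19.0% in coding exons (4 of 21 peaks), 5.81% in first introns and 5.33% in later introns, with intervals that overlapped. It was 11.8% (5.56 to 21.3) for DMSO peaks of 25 or more fragments and 6.33% (4.54 to 8.55) for smaller ones.

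The 48 pairs had about the same height in the 2 libraries. A pair needs a peak above the authors' threshold in both, so places that fell below it in either library are left out. The ratios therefore do not show how the mark changed over all genic peaks. The log2 ratio of AS-99 to DMSO fragments, each per 1000000 in its library, had a median of 0.00 (-0.13 to 0.13) and was above 0 in 24 pairs and below 0 in 24. In all 8 pairs from regions with a peak in all 4 lists the AS-99 value was the higher one, with a median of 0.36. In the other 40 the median was -0.08 (-0.16 to 0.07).

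HFM1, the helicase of meiotic recombination, had the tallest pair, with 47 fragments in DMSO and 102 in AS-99, a log2 ratio of 1.36. The same place held 235 fragments in the DMSO ASH1L library and 135 in the AS-99 ASH1L library, so its height was not particular to the H3K36me2 antibody. Of the 31-base words around its DMSO summit, 11.5% occur elsewhere in the assembled genome. Copies missing from the assembly could not be counted, and whether the reads at HFM1 came from this gene was not tested. REXO1L1, which had 23 and 30 fragments, stands in copied sequence: 60% of the 31-base words around its summit occur elsewhere in the genome, so its reads could belong to a copy. SIGLEC10 had 25 and 30 fragments in the coding sequence of exon 2, with ASH1L peaks of 31 and 30 fragments. The gene with the identifier ENSG00000285382 had 25 and 19 fragments and MAPK6 had 26 and 16, and no ASH1L peak was listed at either.

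**Figure D5:**
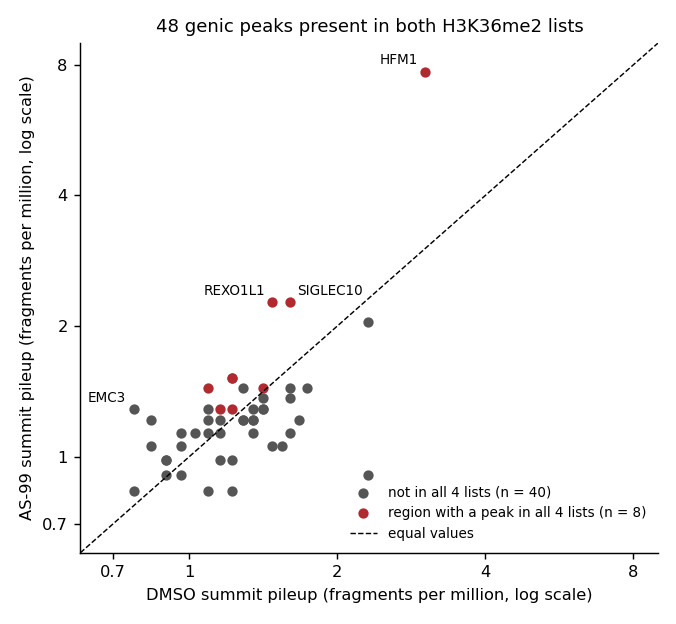
AS-99 against DMSO fragments at the summit per 1000000 fragments of the library (log scales) for the 48 genic peaks matched between the lists; red points are regions with a peak in all 4 lists and the dashed line marks equal values. The 8 red points lie above the line, HFM1 farthest out, and the 40 grey points lie on both sides of it.

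The strongest genic DMSO peaks without an AS-99 peak were led by DEDD2, a gene of a death effector domain protein, with 39 fragments (Poisson interval 27.7 to 53.3) and a fold enrichment of 7.31. This place held ASH1L peaks in both treatments, with 28 and 35 fragments. The next was DTNB, a dystrobrevin of the dystrophin complex, with 33 fragments in intron 9 and no ASH1L peak. ATG5, needed for autophagosome formation, had 41 fragments, PMFBP1, a protein of the sperm neck, had 31, and C3, the central complement component, had 27, all 3 in introns outside the canonical transcript. PNKD had 28 fragments in intron 2. A place without a listed AS-99 peak is one where no peak passed the authors' threshold there, which is not a value of 0.

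The strongest AS-99 peaks without a DMSO peak were lower in fragments, which are not scaled to depth. They were not lower in fold enrichment, which ran from 6.38 to 7.24, beside 5.40 to 7.31 for the 6 DMSO peaks. MYO1F, a class I myosin of leukocytes, had 26 fragments (17.0 to 38.1) at 267 bases from its start, in exon 1. It held ASH1L peaks of 22 fragments in DMSO and 26 in AS-99. NCKAP5L, a microtubule-binding protein, had 23 and ANKRD33B 21, both in intron 1. SIPA1L3, of the family of GTPase activators of Rap, had 23 in intron 2. KIF6, a kinesin, had 19 in intron 22, and SUN3, a nuclear envelope protein of spermatids, had 21 in intron 8. Of these 6, SUN3 alone stood in a CpG-rich window, with 15 CpG in 300 bases, and it shared its place with a DMSO ASH1L peak of 18 fragments.

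ASH1L peaks of the same treatment covered about the same share of genic H3K36me2 peaks in DMSO and in AS-99. They overlapped 109 of 692 in DMSO (15.8%, 13.1 to 18.7), beside 18.5% of all DMSO H3K36me2 peaks, and 52 of 333 in AS-99 (15.6%, 11.9 to 20), beside 20.5% of all. The difference between treatments was -0.14 points (-4.69 to 4.84). The ASH1L lists differ in length, with 3073 peaks in DMSO and 1812 in AS-99 on these chromosomes. The longer DMSO ASH1L list overlapped 64 genic AS-99 H3K36me2 peaks (19.2%, 15.1 to 23.9), beside 24.1% of all. The AS-99 ASH1L list overlapped 56 genic DMSO H3K36me2 peaks (8.09%, 6.17 to 10.4), beside 10.6% of all. The part of list length in these shares was not tested. Within 1 kb of the gene start the share was 34.4% in DMSO (11 of 32) and 28.2% in AS-99 (11 of 39), and farther in it was 14.8% and 13.9%. By part of the gene in DMSO, it was highest in exons that are not coding (29.9%, 19.3 to 42.3) and lowest in later introns (11.2%, 8.08 to 15.1). The AS-99 list had another order, with 25% in coding exons (5 of 20 peaks), 17.6% in other exons, 15.4% in later introns and 8.93% in introns outside the canonical transcript, and its intervals overlapped. Of the 48 overlapped DMSO peaks 16 had a DMSO ASH1L peak (33.3%, 20.4 to 48.4), and of the other 644 it was 93 (14.4%, 11.8 to 17.4). This contrast is partly built in, because 8 of the 16 were in regions chosen for a peak in all 4 lists, ASH1L included. Of the 40 overlapped DMSO peaks outside such regions, 8 had a DMSO ASH1L peak.

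Some genes tied to this leukemia and to blood cells were among the hosts. Over all 20090 gene symbols, 3.20% held a DMSO H3K36me2 peak and 1.71% an AS-99 peak, and the gene lists that follow are short, so that a single gene moves a share by several points. Of the 11 genes the study followed, among them HOXA9, HOXA10, MEIS1, MEF2C and ASH1L itself, none held a DMSO peak, with an upper Clopper-Pearson bound of 28.5% on the share. FLT3, a receptor tyrosine kinase of blood progenitors, held 1 AS-99 peak of 12 fragments (6.2 to 21.0) in intron 15, where the DMSO ASH1L library had a peak of 21 fragments. Of 33 target genes of MLL fusions, 3 held DMSO peaks (JMJD1C, RUNX1 and SUPT3H) and 2 held AS-99 peaks (FLT3 and RUNX1). These shares of 9.09% (1.92 to 24.3) and 6.06% (0.74 to 20.2) are above those of all genes, which their intervals include. Per megabase of gene, the list held 0.50 genes with a DMSO peak, beside 0.47 for all genes. JMJD1C, of the family of JmjC demethylases, had 17 fragments in intron 24, and SUPT3H, a subunit of the SAGA complex, had 18 in intron 3.

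Of 25 annotated genes for writers, erasers and readers of H3K36 methylation, KDM2B and MSH6 held 1 DMSO peak each (8% of the genes, 0.98 to 26.0) and no gene held an AS-99 peak, with an upper Clopper-Pearson bound of 13.7%. KDM2B, a demethylase of H3K36me2, had 13 fragments in intron 8. MSH6, the mismatch repair protein whose PWWP domain reads H3K36me3, had 16 fragments in an intron outside its canonical transcript, over a DMSO ASH1L peak of 16. Of 31 hematopoietic transcription factors, CEBPE, ETV6 and RUNX1 held DMSO peaks (9.68%, 2.04 to 25.8) and RUNX1 held AS-99 peaks (3.23%, 0.08 to 16.7). RUNX3, which held an AS-99 peak, is not on this list, so the counts depend on which factors were listed. ETV6, often rearranged in leukemia, had DMSO peaks of 23 and 20 fragments, in introns 1 and 2.

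Of 25 genes listed as myeloid markers, which for peak lists cannot show expression, PTPRC (CD45) held DMSO peaks of 23 and 29 fragments in intron 2, less than 1 kb apart. This gene is 4% of the list (0.10 to 20.4), and it is counted again below among the adhesion, synapse and ion channel families. CSF1R, CSF2RA and FLT3 held AS-99 peaks of 12, 9 and 12 fragments, which is 12% of the list (2.55 to 31.2). The 9 fragments at CSF2RA are the lowest genic pileup of the AS-99 list. The FLT3 peak is the same one counted above among the study genes and the MLL fusion targets. CSF1R and CSF2RA encode receptors for macrophage and for granulocyte-macrophage growth factors. No AS-99 peak was listed at PTPRC and no DMSO peak at the other 3 genes.

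Gene families chosen by symbol gave the following shares. Zinc finger genes named ZNF held a DMSO peak in 8 of 515 (1.55%, 0.67 to 3.04) and an AS-99 peak in 8, with ZNF577 in both. Solute carriers held one in 11 of 385 in DMSO (2.86%) and in 3 in AS-99 (0.78%). Genes of adhesion, synapse and ion channel families, with a median length of 122 kb, held one in 18 of 334 in DMSO (5.39%, 3.22 to 8.38) and in 5 in AS-99 (1.5%, 0.49 to 3.46). Per megabase of gene, the latter families held 0.20 genes with a DMSO peak, and all genes 0.47. Olfactory receptor genes (415), ribosomal protein genes (81) and histone genes (90), with median lengths of 2076, 5548 and 589 bases, held no peak in either H3K36me2 list. The upper Clopper-Pearson bounds on their shares were 0.88%, 4.45% and 4.02%. These families span only 2.73, 0.853 and 0.321 Mb. At the density of all genes, so little sequence would hold few peaks or none, so the absence is not read as a trait of the families.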

How the data were processed

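The 4 CUT&RUN libraries, 1 per group by the labels, were analysed from the peak lists that the authors called for each. Reads had been mapped to hg19. The settings printed in the file headers are those of MACS 2.1.0.20150731, with paired-end fragments, no control library, a q-value limit of 0.01, up to 2 duplicates kept per position and local background over 10 kb. The deposited signal is the pileup at the summit, not scaled to depth. The deposited fold enrichment is its ratio to local background, and the deposited −log10 p-value and −log10 q-value come from a Poisson model. Positions and lengths are other deposited columns. The study names a spike-in, which does not enter these values.

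Summits were placed in protein-coding genes of GENCODE release 44 on GRCh37 (20098 genes), and the longest gene at a summit was its host. Exons of all transcripts counted, coding first. Introns were numbered in the canonical transcript. Density used determined bases under the same rules. Overlap was at least 1 bp. Matched peaks overlapped 1 to 1 and were compared per 1000000 filtered fragments. Intervals were Clopper-Pearson for shares, Newcombe for differences, exact conditional binomial for count ratios, Poisson for counts and order-statistic for medians. Words of 31 bases were counted over the genome to find copied sequence. Python 3.11.15, numpy 2.4.6 and scipy 1.17.1 were used, and the steps were tested on simulated data. Named peaks were the 6 with the highest −log10 p of each kind, the 5 genes with most peaks with those tied, and the genes of 3 lists; 1 of these peaks is not reported here. Members and lists were chosen with earlier results of these data known.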

Additional observations from a re-analysis of the deposited data

Results flagged for a closer look

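Peaks on the mitochondrial chromosome lie outside the chromosomes described above and hold no member. The DMSO H3K36me2 list has 6 of them and the AS-99 H3K36me2 list also has 6, and they are given here because they are a signal in data that no comparison used. The ASH1L lists have 6 in DMSO and 4 in AS-99. No control library was available, and the mitochondrial sequence was not annotated.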

How the results depend on the processing

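Of 104 alternative values, 83 stayed within the interval of the reported one. The larger share within 1 kb of the start under AS-99 kept its direction in all 9 alternatives, with intervals above 0. The larger first-fifth share kept its direction in all 8 (2.43 to 9.12 points), but its interval included 0 under the bound on fold enrichment and under that on −log10 p. Among peaks with fold enrichment of at least 5, the genic count ratio was 1.02, the DMSO genic share 47.1%, the DMSO ASH1L share 13.0%, the overlapped difference -12.4 points and the matched log2 ratio 0.14. At −log10 p of at least 10 the genic shares were 45.1% in DMSO and 44.1% in AS-99, the overlapped share 4.15%, its difference -13.3 and the log2 ratio 0.23. With equal list lengths the DMSO genic share was 46.8%, the genic share difference 5.68 points with an interval above 0, the overlapped difference -9.05, the log2 ratio -0.16, and the ASH1L shares 11.8% in DMSO and 9.01% in AS-99. Reciprocal overlap of 50% gave 5.06% overlapped and 11.4% with ASH1L in DMSO. Canonical spans, an alternative chosen after seeing the data like the start of any transcript and the removal of copied sequence, gave genic shares of 42.2% and 42.4%. The genic minus intergenic overlap turned to 0.19 without peaks near gaps and to 0.91 without regions in all 4 lists. The causes were not tested. No paired analysis was possible because there was 1 library per group. Depth limits what a missing peak shows: the lowest listed genic pileups were 10 fragments in DMSO and 9 in AS-99.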

Other observations

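Genic H3K36me2 peaks were spread unevenly over chromosomes. Chromosome 19 had the highest density in both lists, with 1.44 peaks per Mb of genic sequence in DMSO (1.06 to 1.91) and 1.20 in AS-99 (0.856 to 1.63). Chromosome 8, which holds CPQ, came next in DMSO, with 1.11 (0.861 to 1.41), and had 0.391 in AS-99 (0.251 to 0.582), or 68 peaks against 24. Chromosome X had the lowest, with 5 peaks in DMSO and 2 in AS-99. On chromosome 19 the counts were 48 and 40, a ratio of 0.833 (0.534 to 1.30), and on chromosome 14, which holds FOXN3, they were 30 and 6, a ratio of 0.200 (0.068 to 0.488). The number of copies of each chromosome in these cells was not measured here, and its part in the densities was not tested.

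Summits in copied sequence, with at least 50% of their 31-base words elsewhere in the genome, were 1.59% of DMSO and 3.30% of AS-99 genic peaks, beside 7.65% and 13.3% of the peaks between genes and 10.6% of windows set along genic sequence. Hosts were on the plus strand for 48.3% of DMSO and 51.4% of AS-99 peaks.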
